A study of Homo sapiens with 4 samples.

Results

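The genes described here are 46 members of the integrated stress response and of the amino acid supply that it controls. They were chosen by name as the transcriptional program of ATF4, with earlier results of these data known. Of the 46 members, 46 had a single row among the 57815 rows of the expression table. The table holds 4 RNA-seq libraries from AGS and MKN1, established human cell lines from gastric carcinomas. In the knockdown library of each line the cells were transfected with a small interfering RNA against HOXB9 (siHOXB9, genotype given as HOXB9 knockdown). In the control library they received a scrambled siRNA (siScramble, genotype given as WT). All 4 groups, AGS siHOXB9, AGS siScramble, MKN1 siHOXB9 and MKN1 siScramble, were transfected with Lipofectamine 2000, and each group is 1 library. The siRNA sequences and the time between transfection and harvest are not stated in the labels, and nothing in the labels says whether the libraries came from separate cultures.

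The integrated stress response is a pathway in which the kinases GCN2, PERK, PKR and HRI phosphorylate the translation factor eIF2. General protein synthesis then falls, while the mRNA of the transcription factor ATF4 is translated more. ATF4 with its C/EBP partners switches on enzymes that make asparagine, serine, glycine and folate-bound carbon units, transporters that import amino acids, and synthetases that load amino acids onto tRNA. Cultured tumour cells use this program when amino acids run short or when the endoplasmic reticulum or the mitochondria are disturbed. The levels below are FPKM (fragments scaled to gene length and to library size, computed by the authors), a unit that is per length, so that levels of different genes can be set side by side.

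ATF4 heterodimers bind the C/EBP-ATF response element, searched for here as TGATGNAA on either strand (the other strand reads TTNCATCA) in RefSeq promoter windows of GRCh38.p14 that run from 250 bases before to 50 bases after a gene's start. Of the 46 members 38 had at least 1 such window, the synthetases under their current symbols (AARS1 for AARS, for example), and 17 of the 38 (44.7%) held the element in a window. Among all 27305 genes with a window 4.46% held it, and among 8764 genes that reached 1 FPKM in AGS and matched by symbol 2.58% did. Members with several windows have more chances of a match: of 20 members with 1 window 6 held the element, against 3.85% of the 22114 genes with 1 window. The element was present for 7 of 11 matched genes of tRNA charging and export, 4 of 7 amino acid transporters, 3 of 8 stress regulators, 1 of 5 stress effectors, 1 of 4 serine and one-carbon enzymes and 1 of 3 other amino acid enzymes. A match describes letters in the window and shows no binding. The members were chosen by name as the program of ATF4, so their higher share is not a finding separate from that choice. The 17 elements are printed on the gene's strand in capitals within 30 bases, because the share of members that hold the element is above that of all genes; the other matched members lack these letters in their windows.
ATF3 (chr1:212565205-212565234, forward strand): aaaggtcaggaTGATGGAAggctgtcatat
CEBPG (chr19:33374060-33374089, forward strand): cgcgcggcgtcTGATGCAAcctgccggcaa
JDP2 (chr14:75427995-75428024, forward strand): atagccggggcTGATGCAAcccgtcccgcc
CHAC1 (chr15:40953251-40953280, forward strand): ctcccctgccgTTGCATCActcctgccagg
MTHFD1L (chr6:150866346-150866375, forward strand): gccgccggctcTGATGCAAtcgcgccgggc
ASNS (chr7:97872458-97872487, reverse strand): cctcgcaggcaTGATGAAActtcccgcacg
SLC3A2 (chr11:62881719-62881748, forward strand): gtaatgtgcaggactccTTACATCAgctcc
SLC7A1 (chr13:29595663-29595692, reverse strand): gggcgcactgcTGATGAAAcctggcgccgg
SLC1A5 (chr19:46784893-46784922, reverse strand): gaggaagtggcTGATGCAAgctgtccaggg
SLC1A4 (chr2:64989381-64989410, forward strand): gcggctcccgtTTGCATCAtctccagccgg
AARS (chr16:70289675-70289704, reverse strand): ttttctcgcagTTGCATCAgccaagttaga
GARS (chr7:30594834-30594863, forward strand): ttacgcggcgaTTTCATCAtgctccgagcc
CARS (chr11:3057407-3057436, reverse strand): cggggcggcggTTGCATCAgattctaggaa
MARS (chr12:57488053-57488082, forward strand): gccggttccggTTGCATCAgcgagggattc
NARS (chr18:57621804-57621833, reverse strand): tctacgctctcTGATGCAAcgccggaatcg
IARS (chr9:92293692-92293721, reverse strand): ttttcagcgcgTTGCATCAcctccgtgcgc
TARS (chr5:33440956-33440985, forward strand): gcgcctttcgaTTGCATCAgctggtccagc

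Whole windows of CHAC1 and ASNS follow, since among the members these genes had the lowest values with siHOXB9 relative to siScramble in AGS. CHAC1 has 1 window. ASNS has 2 windows, and only 1 that holds the element is printed. The element, again in capitals, begins at position -209 relative to the start in the CHAC1 window and at -68 in the ASNS window.
CHAC1 (chr15:40953221-40953520, forward strand): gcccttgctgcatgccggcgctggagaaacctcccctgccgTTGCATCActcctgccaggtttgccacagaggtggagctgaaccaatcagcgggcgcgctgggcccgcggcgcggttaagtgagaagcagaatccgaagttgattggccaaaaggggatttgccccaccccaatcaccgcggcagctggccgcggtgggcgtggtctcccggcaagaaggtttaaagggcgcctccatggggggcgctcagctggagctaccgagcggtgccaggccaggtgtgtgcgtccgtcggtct
ASNS (chr7:97872359-97872658, reverse strand): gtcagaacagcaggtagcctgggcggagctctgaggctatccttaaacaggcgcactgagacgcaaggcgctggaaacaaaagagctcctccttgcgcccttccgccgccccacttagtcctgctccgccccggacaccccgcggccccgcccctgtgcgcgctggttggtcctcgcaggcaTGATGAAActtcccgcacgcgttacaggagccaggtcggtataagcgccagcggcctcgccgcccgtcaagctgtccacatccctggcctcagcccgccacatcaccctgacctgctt

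HOXB9 transcript itself was at 4.44 FPKM in AGS siHOXB9 against 16.4 FPKM in AGS siScramble, and at 0.218 FPKM in MKN1 siHOXB9 against 1.14 FPKM in MKN1 siScramble. The MKN1 values are near or under 1 FPKM, so the HOXB9 difference there rests on few fragments. Depth, recovered from low values, was estimated at about 12440000, 12970000, 10610000 and 11500000 fragments in AGS siHOXB9, AGS siScramble, MKN1 siHOXB9 and MKN1 siScramble, so 1 FPKM in a transcript of 2 kb rests on 21.2 to 25.9 fragments. The share of summed FPKM that came from mitochondrially encoded transcripts was 1.79% in AGS siHOXB9 and 0.988% in AGS siScramble, and 0.470% in MKN1 siHOXB9 and 0.686% in MKN1 siScramble. The part of this shift and of the depths in the results below was not tested. The keratin genes KRT8 and KRT18, markers of epithelial cells, were between 654 and 1879.6 FPKM in the 4 libraries. EPCAM was at 359 and 328 FPKM in AGS siHOXB9 and siScramble and at 2.70 and 2.14 FPKM in MKN1 siHOXB9 and siScramble, and CDH17 was under 0.05 FPKM in MKN1. With siHOXB9 all 8 gastric epithelial markers in AGS and all 6 measured ones in MKN1 were higher than with siScramble. Of all rows that reached 1 FPKM in a library of the line, 43% were higher in AGS and 63.1% in MKN1. The median of the markers was 0.25 in AGS and 0.26 in MKN1 on the log2 scale, beside -0.059 and 0.095 for all rows. The part of these markers in the results was not tested. Of 5 leukocyte markers CD68 alone reached 1 FPKM (2.67 and 3.30 FPKM in AGS siHOXB9 and siScramble, 12.7 and 12.02 FPKM in MKN1 siHOXB9 and siScramble), and PTPRC and CD3E were at or near 0. Of 5 fibroblast markers 2 reached 1 FPKM in AGS and 5 in MKN1, with COL1A1 at 29.3 and 15.8 FPKM in AGS siHOXB9 and siScramble and at 43.8 and 35.0 FPKM in MKN1 siHOXB9 and siScramble. Of 3 endothelial markers CDH5 reached 1 FPKM in MKN1 alone (0.856 and 1.95 FPKM with siHOXB9 and siScramble), and KDR was listed at 0 throughout.

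The first comparison asked how the ATF4 program stood in AGS with siHOXB9 relative to siScramble. CHAC1, which degrades glutathione, was 3.69-fold lower and ASNS, which makes asparagine, 3.29-fold lower. All measured genes of serine and one-carbon metabolism, amino acid import and tRNA charging and export lay below their controls, with 4 of 5, 3 of 7 and 0 of 13 of them past 2-fold. The regulators ATF3 and ATF5 and the effector PPP1R15A were not lower. Of 43 members that reached 1 FPKM in a library of the line, 40 (93.0%) had a change below 0, where 57% of all 13252 rows that reached this level did. The change is log2((siHOXB9 FPKM + 1)/(siScramble FPKM + 1)), with a median of -0.66 for the members and -0.059 for all rows. By a size rule of 2-fold (a change of at least 1 on the log2 scale) 11 members (25.6%) were lower, against 2.21% of all rows (3.89% in either direction). No member was higher by this rule, against 1.68% of all rows. By a rule of 1.5-fold 23 members were lower, against 8.37% of all rows. The 3 members above 0 stand beside 43% of all rows. Each of the 43 members reached 1 FPKM in both AGS libraries, so none entered through its higher library alone. With 1 library per group there is no replicate check of any difference within a line, and no test was made. In bulk RNA, fewer cells that use the program and less RNA per cell cannot be told apart.

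**Figure D1:**
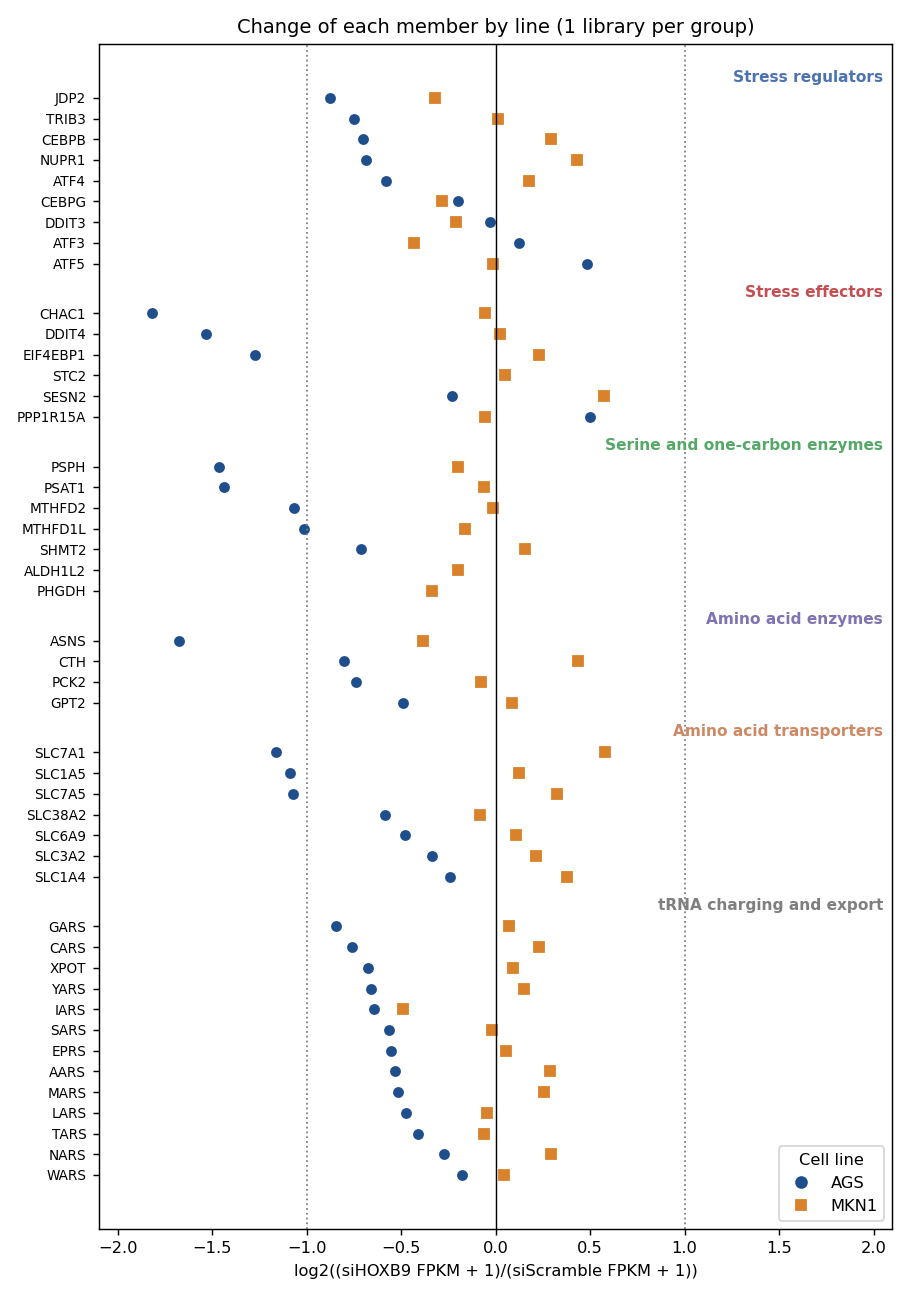
Change of each member on the log2 scale with 1 FPKM added (x axis), by gene and role (y axis), in AGS (circles) and MKN1 (squares), 1 library per group. Dotted lines mark 2-fold. In AGS 11 members lie past the left line, in MKN1 none lies past either line, and PHGDH, STC2 and ALDH1L2 have no circle because they stayed under 1 FPKM in AGS.

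Among the 4 genes grouped here as other amino acid enzymes, ASNS, which makes asparagine, differed most in AGS. PCK2 is kept in this group although it does not make or interconvert amino acids. ASNS (ENSG00000070669.16, chromosome 7 from 97852118 to 97872542 in GRCh38, 17 annotated transcripts) was at 23.1 FPKM in AGS siHOXB9 and 76.0 FPKM in AGS siScramble, which is 30.4% of the control and a log2 change of -1.68. Only 48 of the 13252 rows had a lower change. CTH, which makes cysteine from cystathionine, was at 6.94 FPKM against 12.9 FPKM (log2 -0.80). PCK2, the mitochondrial form of phosphoenolpyruvate carboxykinase, was at 47.6 FPKM against 80.2 FPKM (log2 -0.74). GPT2, the mitochondrial alanine aminotransferase, stood at 167 FPKM in AGS siHOXB9 and 235 FPKM in AGS siScramble (log2 -0.49). All 4 genes of this group were thus below their control in AGS, and 1 passed the size rule.

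Serine is made from a glycolytic intermediate by PHGDH, PSAT1 and PSPH in turn, and the mitochondrial enzyme SHMT2 then passes its carbon into folates. The mitochondrial enzymes MTHFD2, MTHFD1L and ALDH1L2 act on the folate-bound carbon. PSPH, the last step of serine synthesis, was at 13.6 FPKM in AGS siHOXB9 and 39.2 FPKM in AGS siScramble (log2 -1.46). PSAT1, the step before it, was at 61.1 FPKM against 167 FPKM (log2 -1.44). MTHFD2 was at 60.6 FPKM against 128 FPKM (log2 -1.07) and MTHFD1L, which releases formate, at 29.1 FPKM against 59.8 FPKM (log2 -1.01). SHMT2, which splits serine into glycine and a folate-bound carbon, was at 207 FPKM against 339 FPKM (log2 -0.71). The 5 measured genes of this group were all lower, 4 of them past 2-fold, with a median of -1.07. PHGDH, the first step of the same route, was close to the limit of detection in AGS, at 0.292 FPKM with siHOXB9 and 0.276 FPKM with siScramble. ALDH1L2 was likewise near 0 in AGS (0.00248 and 0.00477 FPKM with siHOXB9 and siScramble), so neither gene was compared there. MTHFD1L passed the size rule narrowly and did not pass it after rescaling to equal totals, centring or quantile normalization (-0.92 to -0.99). MTHFD2 was at -0.97 after rescaling.

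The effectors that act on growth control and redox balance held 3 of the 11 members past 2-fold. CHAC1, which degrades glutathione, had the lowest change of all members: 14.9 FPKM in AGS siHOXB9 against 54.9 FPKM in AGS siScramble, or 27.1% of the control (log2 -1.82). CHAC1 (ENSG00000128965.12) lies on chromosome 15 from 40952962 to 40956519 in GRCh38, and 38 rows had a lower change. DDIT4, an inhibitor of the growth kinase complex mTORC1, was at 60.9 FPKM against 178 FPKM (log2 -1.53). EIF4EBP1, a repressor of cap-dependent translation, was at 77.1 FPKM against 188 FPKM (log2 -1.28). SESN2, which ties leucine supply to mTORC1, was at 16.5 FPKM against 19.5 FPKM (log2 -0.23), a much smaller distance. PPP1R15A (GADD34), the phosphatase subunit that reverses eIF2 phosphorylation, stood on the other side, with 44.4 FPKM in AGS siHOXB9 and 31.1 FPKM in AGS siScramble (log2 0.50, the highest of the members). STC2, a secreted glycoprotein, was near 0 in AGS (0.0314 and 0.386 FPKM with siHOXB9 and siScramble).

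**Figure D2:**
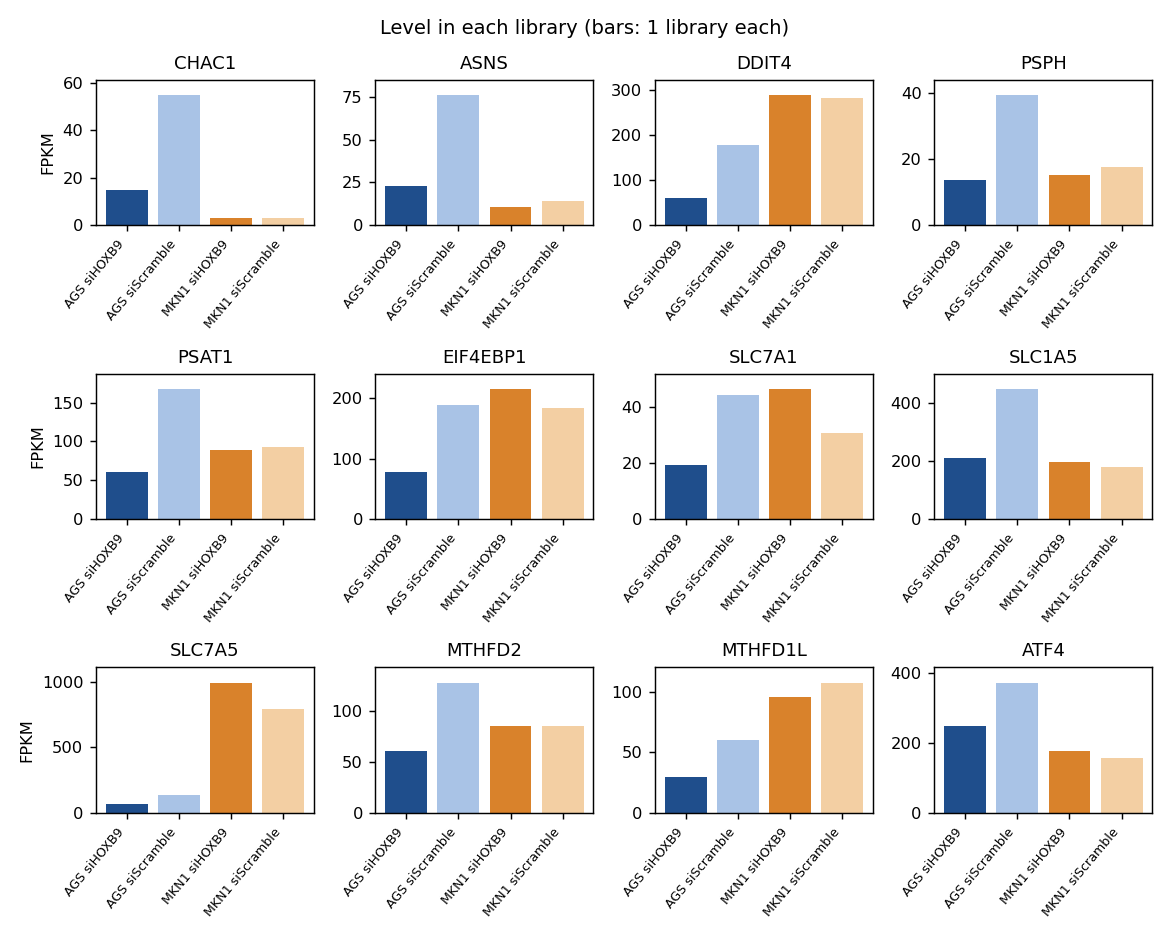
FPKM (y axis, linear and from 0) in AGS siHOXB9, AGS siScramble, MKN1 siHOXB9 and MKN1 siScramble (x axis), 1 library per bar, for the 11 members past 2-fold in AGS and for ATF4. In each panel the AGS siHOXB9 bar is lower than the AGS siScramble bar, while in MKN1 the siHOXB9 bar stands between 1.33-fold lower (ASNS) and 1.51-fold higher (SLC7A1) than the siScramble bar.

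All 7 amino acid transporters were below their control in AGS, with a median of -0.58, and 3 passed the size rule. SLC7A1, which imports arginine and lysine, was at 19.2 FPKM in AGS siHOXB9 and 44.2 FPKM in AGS siScramble (log2 -1.16). SLC1A5, a glutamine carrier, was at 211 FPKM against 449.5 FPKM (log2 -1.09). SLC7A5, the light chain of the leucine exchanger, was at 64.8 FPKM against 138 FPKM (log2 -1.07). Its heavy chain SLC3A2 differed less, at 138 FPKM against 175 FPKM (log2 -0.34). SLC38A2, a carrier of small neutral amino acids, was at 29.9 FPKM against 45.3 FPKM (log2 -0.58). The glycine carrier SLC6A9 (log2 -0.48) and SLC1A4, which carries alanine, serine and cysteine (log2 -0.24), complete the group. After rescaling to equal totals SLC1A5 and SLC7A5 lay just inside 2-fold (-0.99 and -0.98).

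The 12 cytosolic tRNA synthetases and XPOT, which exports tRNA from the nucleus, lay within a narrow band in AGS. All 13 were lower, from -0.84 to -0.18 on the log2 scale with a median of -0.56, and none passed the size rule. GARS, the synthetase for glycine, was at 60.5 FPKM in AGS siHOXB9 and 109 FPKM in AGS siScramble. CARS, for cysteine, was at 31.7 FPKM against 54.4 FPKM (log2 -0.76), and XPOT at 27.2 FPKM against 44.1 FPKM (log2 -0.68). These are the members furthest from their control in the group. Next came YARS for tyrosine (log2 -0.66), IARS for isoleucine (-0.65), SARS for serine (-0.57), EPRS for glutamate and proline (-0.56), AARS for alanine (-0.53) and MARS for methionine (-0.52). LARS for leucine (log2 -0.47), TARS for threonine (-0.41) and NARS for asparagine (-0.28) were closer to their controls. WARS, for tryptophan, was nearest, at 125 FPKM against 142 FPKM.

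The 9 regulators were divided, with 7 below and 2 above their control in AGS and none past 2-fold. ATF4 itself was at 249 FPKM in AGS siHOXB9 and 373 FPKM in AGS siScramble, 66.7% of the control (log2 -0.58). JDP2, a repressor that pairs with bZIP factors, was at 13.7 FPKM against 26.0 FPKM (log2 -0.88). TRIB3, a pseudokinase that ATF4 induces and that in turn restrains ATF4, was at 17.6 FPKM against 30.2 FPKM (log2 -0.75). CEBPB, a dimer partner of ATF4, was at 51.5 FPKM against 84.2 FPKM (log2 -0.70), and the chromatin-associated stress protein NUPR1 at 4.26 FPKM against 7.47 FPKM (log2 -0.69). Those 5 genes were lower to a like extent, whereas the remaining 4 were not. CEBPG, another dimer partner, was at 24.95 FPKM against 28.8 FPKM (log2 -0.20). DDIT3 (CHOP), the factor tied to cell death under lasting stress, was at 16.9 FPKM against 17.3 FPKM (log2 -0.029, which turned positive in each of the 3 alternatives that rescale the libraries). ATF3, induced by many stresses, was at 10.4 FPKM against 9.47 FPKM (log2 0.12). ATF5, whose translation is controlled like that of ATF4, was at 14.2 FPKM with siHOXB9 against 9.87 FPKM with siScramble (log2 0.48).

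Some of these values may hold reads of other genes, since no strand-keeping step is described for these libraries. In GENCODE release 29, DDIT3 shares 355 exon bases with MARS on the opposite strand, where MARS was at up to 148 FPKM, and ATF5 shares 626 with NUP62, at up to 66.5 FPKM. SLC7A5 has the pseudogenes SLC7A5P2 (10.6 to 22.4 FPKM over the 4 libraries) and SLC7A5P1 (4.04 to 7.87 FPKM). Without the 9 members that share exon bases with a gene at 1 FPKM or more or have such a pseudogene, a selection made after seeing the data, 9 of 35 members in AGS were lower past 2-fold and the median was -0.69.

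The members with the promoter element printed above and those without it lay at similar changes in AGS. The 17 with it had a median of -0.65, from -1.82 (CHAC1) to 0.12 (ATF3), and 5 of them passed 2-fold. The 19 measured members with a window and no element had a median of -0.58, from -1.53 (DDIT4) to 0.50 (PPP1R15A), and 4 of them passed 2-fold. These are descriptions of lists and were not tested.

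The same question was asked in MKN1. There the program stood close to its control: 20 of 46 members were below 0, with a median change of 0.047 where all 13122 rows had 0.095. Below 0 lay 36.9% of all rows, and above 0 lay 63.1%, beside 26 members. No member passed 2-fold in either direction, against 1.94% of all rows lower and 2.1% higher (4.05% in either direction). The members ranged from -0.49 (IARS) to 0.58 (SLC7A1). None was lower by 1.5-fold on this scale, against 5.39% of all rows, and none was higher by it, although without the added 1 FPKM SLC7A1 and SESN2 stood 1.51-fold and 1.57-fold higher. The median of the members was -0.027 to -0.057 after rescaling, centring or quantile normalization, so that its sign depends on the scaling.

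By role in MKN1, 6 of 7 serine and one-carbon enzymes were below 0 (median -0.16) and 6 of 7 amino acid transporters above 0 (median 0.22). PHGDH, well expressed in MKN1, was at 83.6 FPKM in MKN1 siHOXB9 and 106 FPKM in MKN1 siScramble (log2 -0.34). PSAT1 was at 89.0 FPKM against 92.8 FPKM (log2 -0.059) and PSPH at 15.3 FPKM against 17.7 FPKM (log2 -0.20). ASNS, with 10.8 FPKM against 14.4 FPKM (log2 -0.38), was among the lowest members of MKN1, at 75.1% of the control. Only IARS, with 39.3 FPKM against 55.7 FPKM, and ATF3, with 5.46 FPKM against 7.72 FPKM (log2 -0.43), had a lower change among the members. CHAC1 was at 2.85 FPKM in MKN1 siHOXB9 and 3.00 FPKM in MKN1 siScramble, 95.0% of the control, and DDIT4 at 288 FPKM against 284 FPKM, 102% of the control. Of the other genes past 2-fold in AGS, MTHFD2 was at 85.3 FPKM in MKN1 siHOXB9 and 86.1 FPKM in MKN1 siScramble (log2 -0.012), MTHFD1L at 95.7 FPKM against 107 FPKM (log2 -0.16), and SLC1A5 at 197 FPKM against 180.2 FPKM (log2 0.13). EIF4EBP1 was at 215 FPKM against 183 FPKM (log2 0.23). SLC7A1 was at 46.2 FPKM against 30.6 FPKM (log2 0.58) and SESN2 at 9.69 FPKM against 6.17 FPKM (log2 0.58), the members highest relative to control. ATF4 was at 176 FPKM against 156 FPKM (log2 0.18).

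Over both lines, the question was which members differed in the same way, with the lines as the only repeat of the knockdown. A limma model of log2(FPKM + 1) that held a line term beside the siRNA term, over 13758 rows, called none of the 46 members at a Benjamini-Hochberg adjusted p under 0.05, where 1 row in all (0.00727%) was called. At an unadjusted p under 0.05 there were 7 members, all lower, against 7.12% of all rows. ASNS had the lowest estimate, -1.03 on the log2 scale (SE 0.30, from 4 libraries; limma p 0.0109, adjusted p 0.570). IARS followed by p, with -0.57 (SE 0.17, adjusted p 0.592), then JDP2 (-0.60), PSPH (-0.83), MTHFD1L (-0.59), PSAT1 (-0.75) and CHAC1 (-0.94). These 7 were lower in both lines, although CHAC1 and PSAT1 differed little in MKN1. How far the lines disagreed is the single residual degree of freedom of this model.

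The directions in the 2 lines were then set side by side. Of 43 members measured in both lines, 25 were below 0 in AGS and above 0 in MKN1, against 34.9% of all 11547 rows measured in both. This count is not separate from the AGS result: 93.0% of the members lay below 0 in AGS, against 57% of all rows. In MKN1 63.1% of all rows lay above 0. The count therefore does not show that the members in particular move in opposite directions. A further 15 were below 0 in both lines, 3 (ATF3, ATF5 and PPP1R15A) were above 0 in AGS and below 0 in MKN1, and none was above 0 in both. These counts depend on the scaling: after rescaling, centring or quantile normalization 18 to 20 members were below 0 in AGS and above 0 in MKN1, 19 to 21 were below 0 in both lines and 4 were above 0 in AGS and below 0 in MKN1. The matching shares of all rows were not taken for these scalings. Across these 43 members the changes of the lines had a Pearson's r of 0.015 and a Spearman's rho of -0.0089, beside a Pearson's r of 0.131 across all 11547 rows, where genes are not independent and share their libraries. The difference between the lines' responses has no residual degrees of freedom in these 4 libraries and was not tested.

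**Figure D3:**
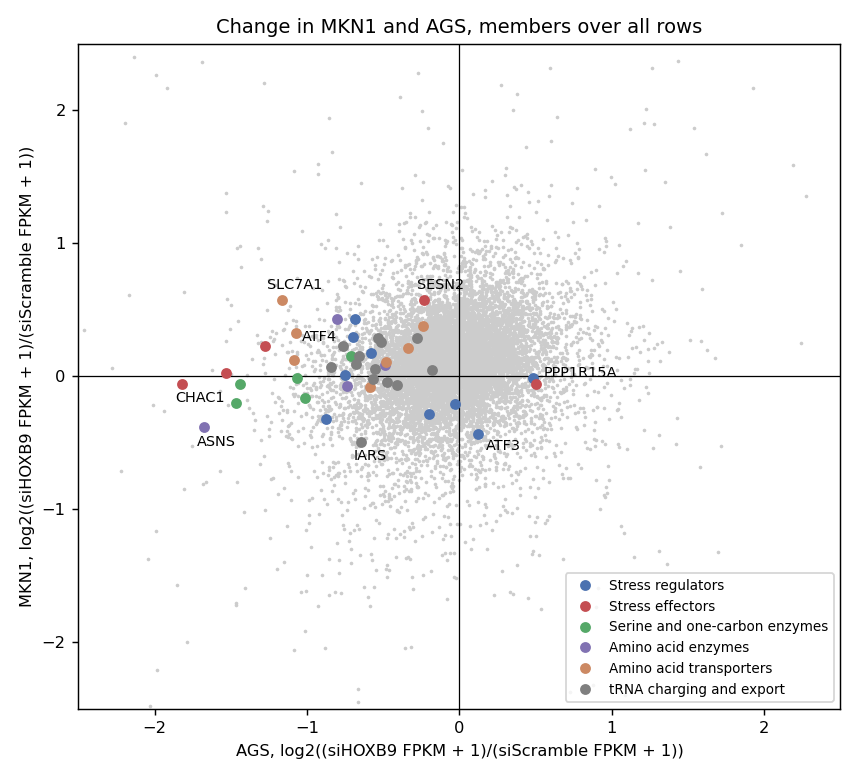
Change in MKN1 (y axis) against change in AGS (x axis), both as log2((siHOXB9 FPKM + 1)/(siScramble FPKM + 1)), for 11547 rows measured in both lines (grey; 36 rows lie outside the drawn range) and for 43 members coloured by role. The members spread along the AGS axis from -1.82 to 0.50 and stay between -0.49 and 0.58 on the MKN1 axis.

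The levels of the members were also compared between the 2 lines over both siRNAs. Each line has 1 library per siRNA, so its siHOXB9 and siScramble libraries served as the only repeat of the line. The model leaves 1 residual degree of freedom. Spread between repeated cultures of a line under the same siRNA was not measured, and the p-values below do not cover it. Of the 46 members, 11 were higher and 6 lower in MKN1 than in AGS by limma (adjusted p under 0.05 and a difference of at least 1 on the log2 scale), where 16.2% of all rows were higher and 20.9% lower (37.1% in either direction). The 17 called members are a share near that of all rows, and 29 members were not called. PHGDH was at 83.6 and 106 FPKM in MKN1 siHOXB9 and siScramble, against 0.292 and 0.276 FPKM in AGS siHOXB9 and siScramble (log2 difference 6.21, SE 0.21, limma adjusted p 1.28e-06). STC2 was at 76.6 and 73.9 FPKM in MKN1 siHOXB9 and siScramble, against 0.0314 and 0.386 FPKM in AGS (log2 5.99, SE 0.22, limma adjusted p 1.82e-06). For both genes the ranges of the lines were far apart.

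The leucine exchanger was the most abundant part of the program in MKN1. SLC7A5 was at 992 and 792 FPKM in MKN1 siHOXB9 and siScramble, against 64.8 and 138 FPKM in AGS (log2 3.22, SE 0.31, limma adjusted p 1.21e-04), and SLC3A2 at 829.7 and 715 FPKM against 138 and 175 FPKM (log2 2.30). Also called higher in MKN1 were NUPR1 (log2 1.92), TARS (1.67), CEBPB (1.47), DDIT4 (1.45), ALDH1L2 (1.40), SLC38A2 (1.29) and MTHFD1L (1.26). ALDH1L2 was at only 1.47 and 1.84 FPKM in MKN1 siHOXB9 and siScramble, so the added 1 FPKM shrinks its difference. ALDH1L2 also shares 145 exon bases with C12orf45 on the opposite strand, at up to 22.2 FPKM, so its value may hold reads of that gene. Between the siScramble libraries alone 14 of the 17 called members differed by at least 1 on the log2 scale, and between the siHOXB9 libraries alone 16 did. The 3 under this size with siScramble were CEBPB, at 1.96 between the siHOXB9 libraries and 0.97 between the siScramble libraries, DDIT4, at 2.23 with siHOXB9 and 0.67 with siScramble, and MTHFD1L, at 1.68 with siHOXB9 and 0.83 with siScramble. SESN2 was the member under it with siHOXB9, at -0.71 against -1.52 with siScramble.

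Lower in MKN1 were CHAC1, CEBPG, PCK2, GPT2, ASNS and SESN2. CHAC1 was at 2.85 and 3.00 FPKM in MKN1 siHOXB9 and siScramble, against 14.9 and 54.9 FPKM in AGS siHOXB9 and siScramble (log2 -2.92, SE 0.39, limma adjusted p 5.83e-04). ASNS was at 10.8 and 14.4 FPKM in MKN1 against 23.1 and 76.0 FPKM in AGS (log2 -1.68, SE 0.30, limma adjusted p 0.00251), so the AGS siHOXB9 library still stood above both MKN1 libraries. PCK2 was at 10.2 and 10.8 FPKM in MKN1 against 47.6 and 80.2 FPKM in AGS (log2 -2.45), and GPT2 at 37.5 and 35.2 FPKM against 167 and 235 FPKM (log2 -2.42). CEBPG (log2 -2.49) and SESN2 (-1.11) complete them. ATF4 differed by -0.87 on the log2 scale (SE 0.22, limma adjusted p 0.0105), which is under the size rule. Among the 13 genes of tRNA charging and export TARS alone was called.

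**Figure D4:**
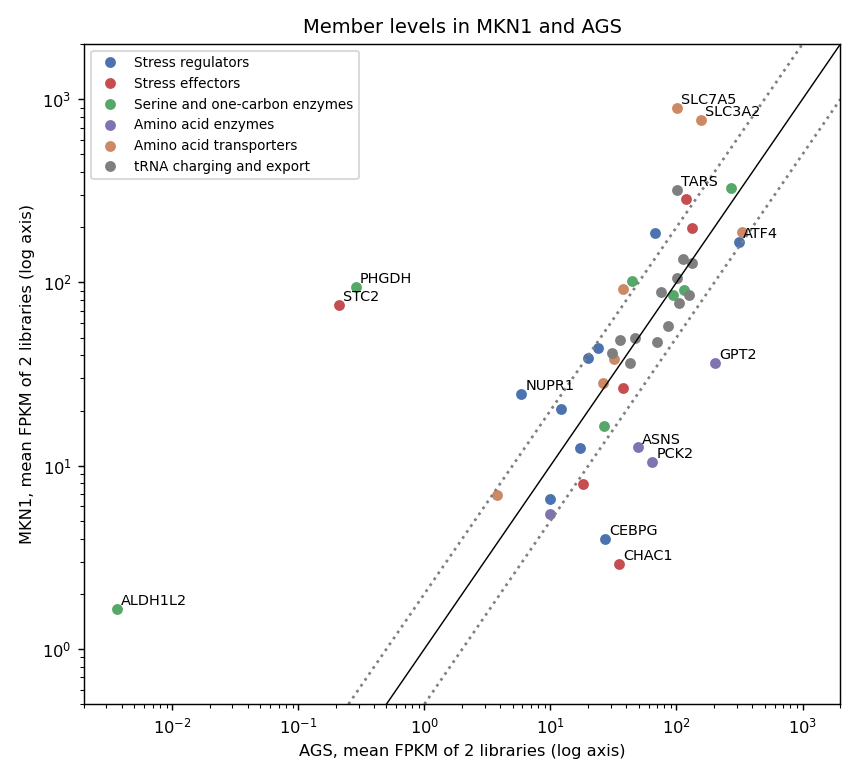
Mean FPKM of the siHOXB9 and siScramble libraries in MKN1 (y axis) against AGS (x axis), both on log axes, for the 46 members coloured by role. The solid line marks equal levels and dotted lines 2-fold; PHGDH, STC2 and ALDH1L2 lie far to the left because their AGS levels were 0.284, 0.209 and 0.00362 FPKM, and CHAC1, CEBPG, PCK2, GPT2, ASNS and SESN2 lie below the lower dotted line.

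Other genes around the pathway were looked at as 6 further lists. In AGS the kinases and factors of the eIF2 cycle, which act upstream of ATF4, had a median change of -0.18 over 16 genes with none past 2-fold. In MKN1 their median was -0.00077, also with none past 2-fold. EIF2AK1, the kinase HRI, was at 45.5 FPKM in MKN1 siHOXB9 and 86.7 FPKM in MKN1 siScramble (log2 -0.92), and at log2 -0.27 in AGS. GCN1L1, the activator of GCN2, was at 29.2 FPKM in AGS siHOXB9 and 49.8 FPKM in AGS siScramble (log2 -0.75), and at log2 0.43 in MKN1.

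Synthetases outside the list were set beside the 12 members, whose median in AGS was -0.54. Of all rows in AGS, 57% lay below 0 and 2.21% were lower past 2-fold. For 11 other cytosolic synthetases and complex subunits the median in AGS was -0.21, with 9 below 0 and 1 past 2-fold, and for 16 measured mitochondrial synthetases it was -0.20, with 15 below 0 and none past 2-fold. The gene past 2-fold was VARS, the synthetase for valine, with 1.76 FPKM in AGS siHOXB9 and 30.3 FPKM in AGS siScramble (log2 -3.50). VARS lies in the major histocompatibility region, which GRCh38 also holds as alternate copies, and how reads there were assigned was not tested. It was at 6.58 FPKM in MKN1 siHOXB9 and 3.996 FPKM in MKN1 siScramble. In MKN1 the medians were 0.064 for the 12 members, 0.093 for the other cytosolic and 0.13 for the mitochondrial synthetases.

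Amino acid transporters outside the list lay on both sides of their controls in AGS. Of 14 measured, 6 were below 0 and 8 above, where 57% of all rows lay below 0 and 43% above. The median of the 14 was 0.042. SLC43A1, a carrier of large neutral amino acids, was lower past 2-fold (4.05 FPKM in AGS siHOXB9, 10.6 FPKM in AGS siScramble, log2 -1.20), and SLC38A7 was higher in AGS (log2 1.02) and in MKN1 (log2 1.44). In MKN1 SLC38A6 was also higher (log2 1.36) and SLC38A9, a lysosomal arginine sensor, lower (log2 -1.11), and the median of 16 measured genes was -0.10.

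Folate and serine genes outside the list had a median of -0.24 over 15 genes in AGS and 0.24 over 13 genes in MKN1. TYMS, which makes thymidylate with folate carbon, was past 2-fold in AGS (log2 -1.06), and GCSH of the glycine cleavage system was at log2 -0.81. GLDC of the same system stood above its control, at 2.30 FPKM in AGS siHOXB9 and 1.01 FPKM in AGS siScramble (log2 0.72). In AGS 5 of the 15 genes lay above 0, beside 43% of all rows. Other reported targets of ATF4 or CHOP had a median of -0.18 over 15 genes in AGS and -0.079 over 14 genes in MKN1, with none past the 2-fold size rule in either line. Beside the 57% of all rows below 0 in AGS, 10 of these 15 genes (66.7%) lay below 0 and 5 above. Among them ADM2, a peptide hormone, was at 5.57 FPKM in AGS siHOXB9 and 10.4 FPKM in AGS siScramble (log2 -0.80), and the stress cytokine GDF15 at 449 FPKM against 769.7 FPKM (log2 -0.77). KLHL24, a substrate adaptor of a ubiquitin ligase, stood above its control in AGS (log2 0.65). INHBE, at 1 FPKM or more in AGS siScramble alone, was at 0.323 FPKM in AGS siHOXB9 against 1.15 FPKM (log2 -0.70). Without the added 1 FPKM that is 3.56-fold lower. SLC7A11 was at 1.00 FPKM in AGS siHOXB9 against 2.12 FPKM (log2 -0.64), 2.11-fold lower without the added 1 FPKM, and at log2 0.64 in MKN1. These lists, like the members, were chosen with earlier results of these data known. They were set beside the members as a description, and no difference between lists was tested.

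**Figure D5:**
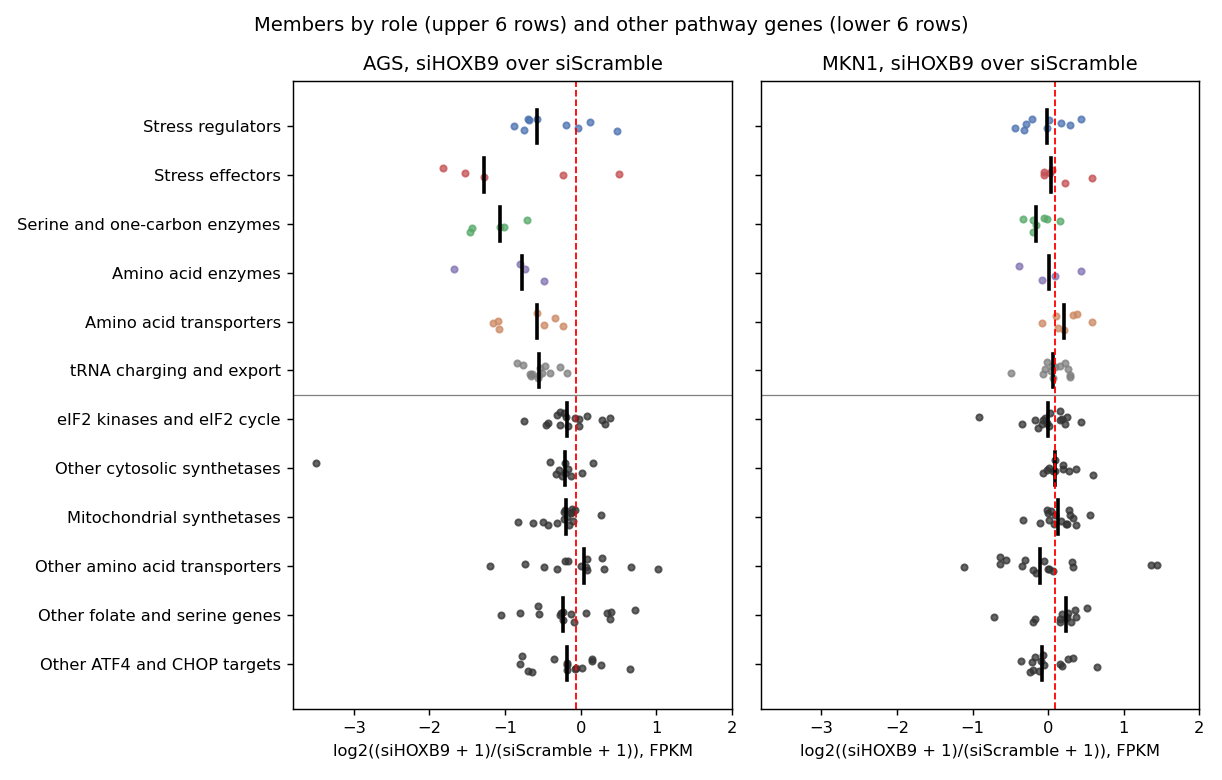
Change of each measured gene (points; x axis, log2 scale with 1 FPKM added) by list (y axis) in AGS (left) and MKN1 (right), with the 6 roles of the members above the grey line and 6 other lists below it. Black bars are medians and the dashed line is the median of all rows (-0.059 in AGS, 0.095 in MKN1); in AGS the 6 medians of the members lie between -1.28 and -0.56 and the other 6 between -0.24 and 0.042.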

How the data were processed

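Polyadenylated RNA was sequenced per the labels, and the authors deposited 1 table of FPKM values by gene symbol. Per the submitters' processing notes the build was GRCh38 (hg38). Neither aligner, counter nor annotation is named in the sources used here. FPKM are no counts, so no count test was run. Members and lists were chosen with earlier results of these data known. Changes used a pseudocount of 1 FPKM, a filter of 1 FPKM in either library of the line and a size rule of 2-fold. limma 3.58.1 in R 4.3.3 was fitted to log2(FPKM + 1) with an intensity trend, for rows at 1 FPKM or more in at least 2 libraries, two-sided, and p-values were adjusted over all rows after Benjamini and Hochberg (threshold 0.05). The fit was also run on simulated data in which each changed row had the same change in both lines. That run does not cover rows where the lines disagree. All members may be named, and of other lists up to 4 genes with the largest change. SLC7A11 was named in addition for its ratio without the pseudocount. Depth was read from 2206 genes with 1 transcript in GENCODE release 29, with lengths shortened by 260 bases; 63.5% to 67.7% of low values lay within 0.05 of a whole fragment. Promoter windows were RefSeq's (GRCh38.p14). Alternatives were another pseudocount, other filters, 3 scalings, a 1.5-fold rule and other variance settings.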

Additional observations from a re-analysis of the deposited data

Results flagged for a closer look

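Of the 11 members that were lower past 2-fold in AGS, 5 had a change of the opposite sign in MKN1. In MKN1 63.1% of all 13122 rows lay above 0, so a change above 0 there is common among all rows. SLC7A1 was at -1.16 in AGS and 0.58 in MKN1 on the log2 scale. SLC7A5 was at -1.07 in AGS and 0.32 in MKN1, and EIF4EBP1 at -1.28 and 0.23. SLC1A5 was at -1.09 in AGS and 0.13 in MKN1, and DDIT4 at -1.53 and 0.025. The MKN1 value of DDIT4 lay below 0 after each of the 3 scalings tried (-0.050 to -0.082), so for DDIT4 the opposite sign depends on the scaling. Each line has 1 library per group, and the difference between the lines was not tested.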

How the results depend on the processing

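In AGS the count of members lower past 2-fold was 11, 10 or 9 under every alternative except a rescaling of the libraries to equal totals, which left 7, and a size rule of 1.5-fold, which gave 23. Over all rows the count was 293 as reported, 235 after rescaling and 1109 with the 1.5-fold rule. It was 585 with a pseudocount of 0.1 FPKM and 155 with a filter of 5 FPKM, while the members stayed at 11. No member was higher in AGS, and none passed in either direction in MKN1, under any alternative run. The AGS median stayed between -0.69 and -0.56. The MKN1 median was -0.027 after rescaling, -0.047 after centring and -0.057 after quantile normalization, against 0.047 as reported, and 0.025 without the members that may share reads with another gene, an alternative chosen after seeing the data. Over both lines limma called 4 members with no filter on low values (ASNS, CHAC1, DDIT4 and PSAT1, with 438 rows called in all), a fit that limma itself reports as unreliable because most residual variances were 0, and 0 members in each other fit. Between the lines 16 to 18 members were called, 17 as reported. The fit over both lines pairs the libraries by line, and without the line term it also called 0 members. Beyond that, no paired analysis was possible because each group is 1 library. At 1 FPKM in 2 kb the counting error alone has an SD of 19.6% to 21.7%. This limits HOXB9 and CHAC1 in MKN1 and the AGS values of PHGDH, STC2 and ALDH1L2.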
